A study of Ischnura elegans with 24 samples.

Results

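The 60 transcripts described here, of 34095 in the deposited table, differed in mean level between rearing temperatures in northern damselfly larvae, while southern larvae had nearly equal mean levels at both temperatures and already lay at 20 °C on the side of the northern 24 °C level. They were chosen by this pattern. For each transcript the level was log2(CPM + 1), where CPM is the count relative to the library's total, scaled between libraries by the trimmed mean of M-values (TMM). N is the northern mean at 24 °C minus that at 20 °C, S is the same difference in southern larvae, and L is the southern minus the northern mean at 20 °C. Transcripts were kept when all 3 northern populations responded in 1 direction, when N was at least 0.3 in size and S at most 0.15, and when L had the sign of N and exceeded 0.15. Of the 277 transcripts that met these conditions, the 60 with the largest smaller value of N and L were taken.

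Plasticity is the change of a trait, here the amount of a transcript, when the same genotypes meet another environment. Under genetic assimilation, a state that ancestors reached only by a plastic response becomes the fixed state of a descendant population, which then no longer responds. Under genetic compensation, selection acts against the plastic change. The title of the series sets these courses side by side for the evolution of plasticity under mild warming. In that framework, the pattern chosen here (responsive in the north, unresponsive in the south, with the southern level toward the northern response) is the one that assimilation would leave in expression levels if the northern response stood for the ancestral one, which these data do not hold.

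The animals were male Ischnura elegans, a damselfly of ponds, taken as whole bodies, labelled F0 and reared singly in the laboratory from hatching to the final larval stage. Northern and southern larvae came from 3 populations each and were kept at 20 or 24 °C. The RNA of 3 larvae was combined in a pool, and each population and temperature gave 2 pools, a and b, so that the 4 latitude-by-temperature groups held 6 libraries each. Larvae of 1 population share their origin, and latitude was replicated by populations only. The 24 libraries held 12061616 to 17157615 counts, with a median of 14423410.5, and the members took 4 to 18254 counts in a library, with a median of 143.

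The members are Trinity contigs, that is, transcripts put together from the reads alone, with no genome as a guide. The files give identifiers without gene names, so the members' functions and sequences are not given, and no pathway list could be applied. The 60 came from 60 different Trinity genes, the assembler's groups of related transcripts. Of these genes, 47 held 1 contig in the table and 13 held 2 to 5. TRINITY_DN2334_c4_g4_i3 and TRINITY_DN2334_c5_g4_i4 shared a read cluster of the assembler. Their levels, with group means removed, correlated at 0.97 over the 24 libraries, and reads of near-identical copies could have been split between them.

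Conditions on level left 12096 contigs, those counted in all 24 libraries with a mean of at least 5 CPM. In 4252 of these the northern populations responded in 1 direction, in 1489 N was also large enough, and in 651 S was also small enough. L then took the sign of N in 277 contigs and the opposite sign in 148, past the same limit. With the latitudes exchanged (responsive southern larvae, unresponsive northern larvae), 97 contigs had the same sign and 28 the opposite sign. Of the 277, 160 were higher and 117 lower at 24 °C in northern larvae. Among the 60 taken for size, the balance was turned, with 18 higher and 42 lower. Both counts depend on whether libraries are scaled. With another scaling, relative log expression (RLE), 163 contigs were higher and 119 lower, with 18 and 42 among the 60 taken. On raw library totals the median N of all contigs past the level conditions was -0.18, against 0.02 with TMM, and 63 contigs were then higher and 315 lower, with 11 and 49 among the 60 taken.

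The northern 20 °C libraries enter both N and L, each time with a minus sign, so a high or low value there moves N and L the same way. This was measured by taking N from the northern libraries of 1 pool and the northern level in L from either the same or the other pool. With N from pool a, 832 contigs met the conditions on N and S. L shared the sign of N in 336 of them and opposed it in 167 when the 20 °C libraries were shared, but in 264 and 274 when they were not. With N from pool b, 916 contigs qualified, and the counts were 541 and 110 with shared libraries, and 213 and 291 without. Same-sign contigs thus outnumbered opposite-sign contigs where libraries were shared, and did not where they were separate.

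**Figure D1:**
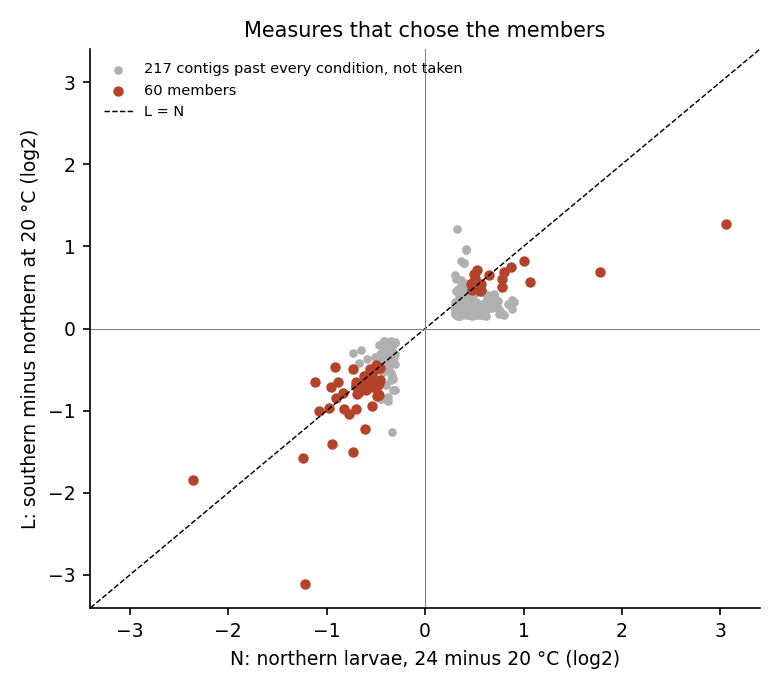
N (northern larvae, 24 minus 20 °C) against L (southern minus northern larvae at 20 °C), both as differences of log2(CPM + 1), for the 277 contigs that met every condition. Red points are the 60 members and grey points the other 217. The dashed line marks equal N and L. The 18 members at upper right were higher at 24 °C in northern larvae and the 42 at lower left were lower.

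The members' measures follow from their choice and are given as a description, with no test. In the 18 higher members N ran from 0.46 to 3.06, with a median of 0.61, and L from 0.46 to 1.27, also with a median of 0.61. In the 42 lower members N ran from -2.35 to -0.46 (median -0.68) and L from -3.11 to -0.45 (median -0.71). The median size of S was 0.07. The last member taken had N of -0.50, S of 0.09 and L of -0.45. The first contig outside had N of -0.45, S of 0.04 and L of -0.86, and missed only because its N was the smaller value. Members were not abundant, with mean levels of 5.05 to 491.4 CPM and a median of 11.3 CPM, against 18.5 CPM over the 12096 contigs.

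In the northern 20 °C libraries the 18 higher members together took 0.0294 to 0.0497% of all counts (mean 0.0407 ± 0.00855%, SD, n = 6). In the other groups their share was 0.0620 ± 0.0198% (northern, 24 °C), 0.0693 ± 0.0223% (southern, 20 °C) and 0.0629 ± 0.00437% (southern, 24 °C). The 42 lower members took 0.347 ± 0.126% in northern larvae at 20 °C and 0.181 ± 0.0571% at 24 °C. Their southern shares were 0.161 ± 0.0442% at 20 °C and 0.1497 ± 0.0266% at 24 °C. These sums follow from the choice of the members, and single libraries of the groups overlapped: the higher members took at least 0.0345% in northern larvae at 24 °C and at least 0.0423% in southern larvae at 20 °C. In whole bodies, fewer cells of a type and less RNA per cell cannot be told apart.

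**Figure D2:**
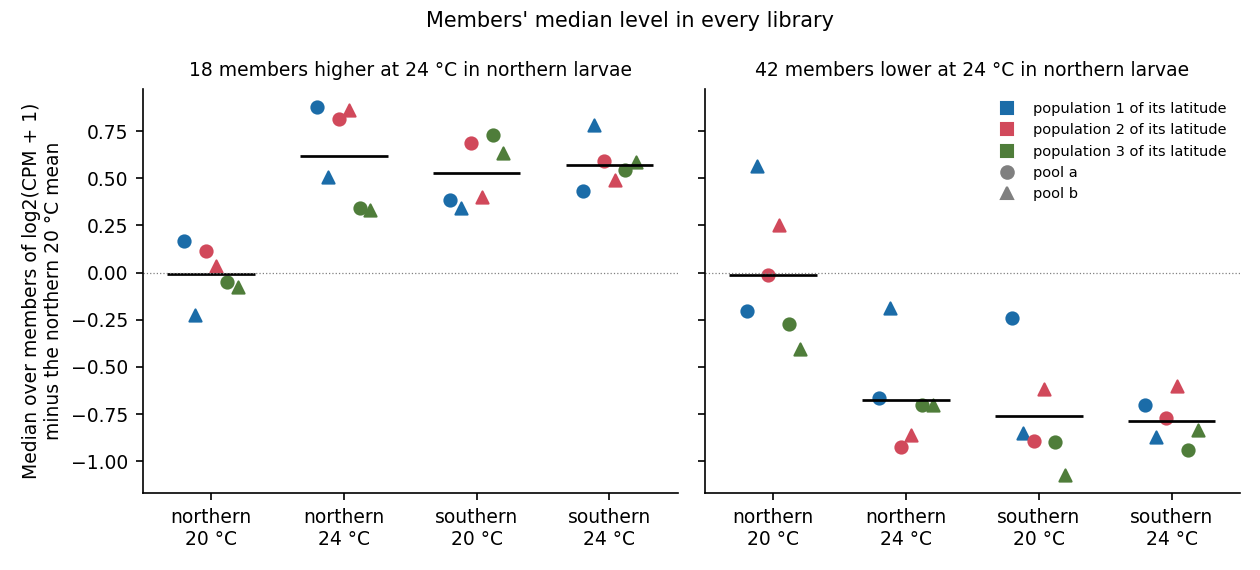
Median over the 18 higher (left) and 42 lower (right) members of log2(CPM + 1) minus the northern 20 °C mean, for each of the 24 libraries. Colour gives the population within its latitude (northern 1 and southern 1 are different populations), shape the pool, and the black bar the mean of 6 libraries. For the lower members, pool b of northern population 1 reached 0.57 at 20 °C and -0.19 at 24 °C, above all the other libraries of its group in both.

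At 24 °C the latitudes differed less, which the choice of a large N, a small S and an L of like sign favours. The southern minus northern difference at 24 °C had a median size of 0.15 among the members, equal to that over the 12096 contigs, and it was smaller than at 20 °C in 58 of 60. In 28 members it was under 0.15. Southern larvae at 20 °C lay past the northern 24 °C mean in 30 members (L larger than N), of which 6 were higher members. The ratio of L to N ran from 0.39 to 2.54, with a median of 0.9995.

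Single members held these differences unevenly over libraries. TRINITY_DN68415_c46_g1_i2 had the largest N, 3.06. In northern larvae at 20 °C it stood at 0.55 and 0.40 CPM in the pools of population 1, 0.61 and 18.3 in population 2, and 0.91 and 1.02 in population 3. At 24 °C the same pools held 0.77 and 145 CPM, 48.6 and 137 CPM, and 0.35 and 35.2 CPM. The contig was thus near absent or high from pool to pool, and the groups overlapped.

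Southern larvae showed the same split. At 20 °C the pools held 34.8 and 0.78 CPM (population 1), 0.79 and 0.72 CPM (population 2), and 12.7 and 18.4 CPM (population 3). At 24 °C they held 16.5 and 33.4, 37.2 and 0.28, and 0.92 and 0.62 CPM. The southern mean difference of 0.14 was the mean of population responses of 1.62, 1.99 and -3.21, so its small size joined large and opposite changes.

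The other higher member named for its size, TRINITY_DN124042_c0_g1_i2, stood at 1.24 to 2.40 CPM in the northern 20 °C libraries (median 1.72). Single libraries were far above the rest in each other group. Pool a of northern population 2 held 33.9 CPM at 24 °C, and pool b of southern population 3 held 73.3 CPM at 20 °C and 50.3 CPM at 24 °C, while no other library passed 4.03 CPM. Without the northern library N was 0.48 in place of 1.01, and without the southern 20 °C library L was 0.034 in place of 0.82.

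Among the lower members, TRINITY_DN69163_c6_g5_i1 came first. Its northern levels were 52.3 to 651 CPM at 20 °C (median 259) and 1.23 to 504 CPM at 24 °C (median 49.5). Its southern levels were 1.07 to 414 CPM at 20 °C (median 68.9) and 3.92 to 231 CPM at 24 °C (median 129). All 4 groups overlapped widely, and the southern populations responded by -3.04, 2.98 and 0.25, for a mean of 0.07.

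TRINITY_DN173075_c13_g4_i1 stood at 8.63 to 36.0 CPM in 5 of the northern 20 °C libraries and at 199.6 CPM in pool b of population 1. Its levels were 6.16 to 16.3 CPM in northern larvae at 24 °C, 4.95 to 19.7 CPM in southern larvae at 20 °C and 5.54 to 9.71 CPM at 24 °C. Without the library at 199.6 CPM, N was -0.63 in place of -1.24.

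**Figure D3:**
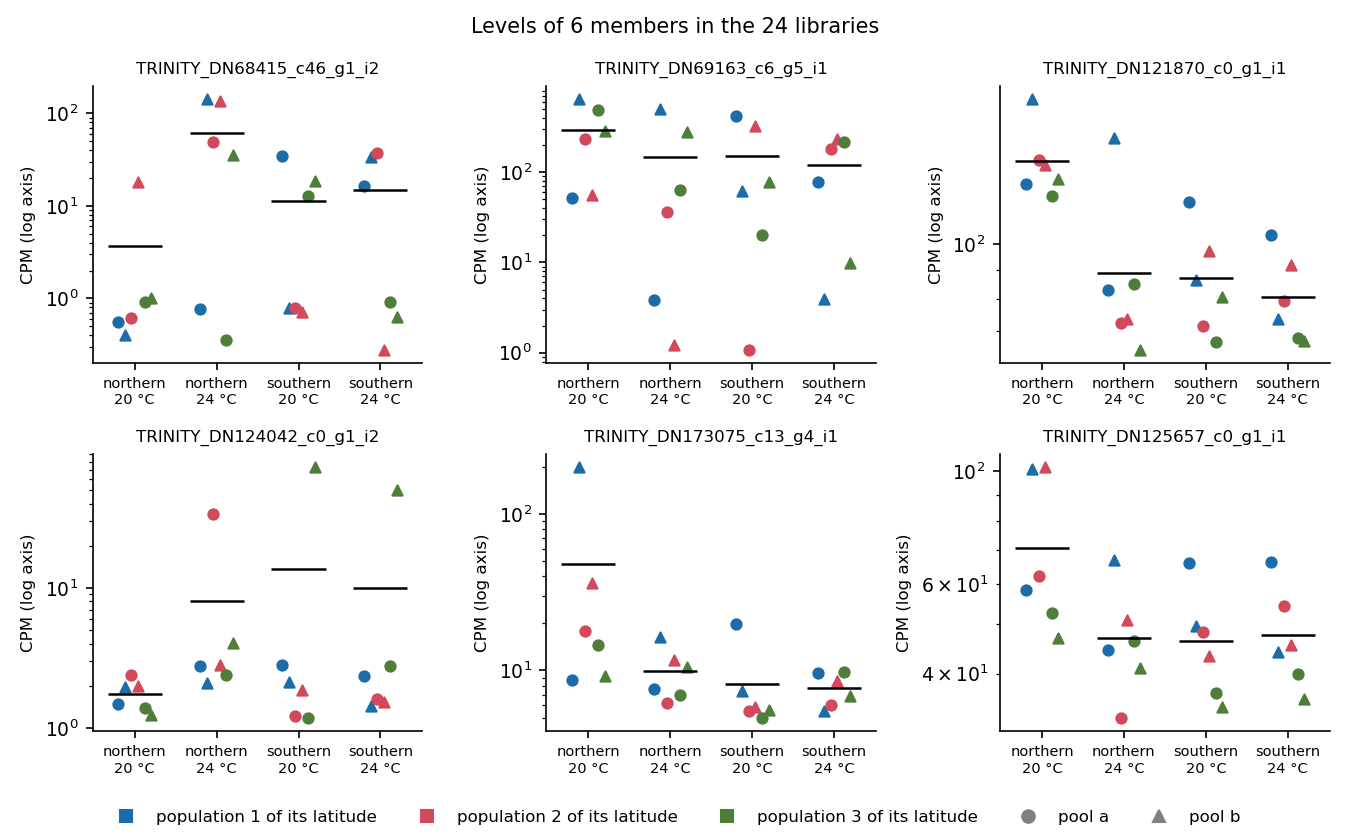
Levels of 6 members in the 24 libraries, in CPM on log axes that differ between panels, with the arithmetic mean of each group as a black bar. TRINITY_DN68415_c46_g1_i2 and TRINITY_DN69163_c6_g5_i1 differed between pools of 1 population by more than their groups did. In TRINITY_DN124042_c0_g1_i2 and TRINITY_DN173075_c13_g4_i1, 1 library lifted a group mean. TRINITY_DN121870_c0_g1_i1 and TRINITY_DN125657_c0_g1_i1 had narrower groups.

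Other members had narrower groups, and the next ones were named after their values were seen. TRINITY_DN121870_c0_g1_i1 stood at 121.8 to 181.5 CPM in the northern 20 °C libraries. At 24 °C 5 northern libraries lay between 64.9 and 85.0 CPM and pool b of population 1 at 154 CPM, while southern larvae held 66.9 to 119 CPM at 20 °C and 67.2 to 104 CPM at 24 °C. Northern larvae at 20 °C thus lay above all 12 southern libraries, and 1 northern library at 24 °C remained high.

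TRINITY_DN1924_c3_g2_i11 held 13.9 to 18.1 CPM in northern larvae at 20 °C and 7.22 to 13.6 CPM at 24 °C. In southern larvae it held 6.06 to 11.2 CPM at 20 °C and 8.02 to 11.6 CPM at 24 °C. It was the single member whose northern 20 °C libraries overlapped neither the northern 24 °C nor the southern 20 °C libraries. The rule used both contrasts, and the share of all contigs with this property was not counted, so nothing is read from it. TRINITY_DN125657_c0_g1_i1 had 47.0 to 102.1 CPM in northern larvae at 20 °C and 32.7 to 66.9 CPM at 24 °C. Its southern levels were 34.4 to 66.0 CPM at 20 °C and 35.6 to 66.3 CPM at 24 °C, nearly equal ranges. It was 1 of the 2 members that met every condition in the libraries of each pool taken alone, with TRINITY_DN11834_c0_g1_i1.

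Groups that do not overlap were counted over all 12096 contigs, and since the rule used these contrasts, the members' counts are given beside the background and nothing is read from them. Northern libraries at 20 and 24 °C did not overlap in 2 of 60 members, 1 higher (TRINITY_DN177501_c0_g1_i1) and 1 lower, beside 1.81% of contigs. Southern libraries at 20 and 24 °C overlapped in all members, beside 1.15% of contigs without overlap. Northern and southern libraries at 20 °C did not overlap in 5 members, 1 higher (TRINITY_DN72345_c0_g2_i3) and 4 lower, TRINITY_DN121870_c0_g1_i1 and TRINITY_DN1924_c3_g2_i11 among them, beside 2.53% of contigs. By population means at 20 °C, 3 against 3, the latitudes did not overlap in 32 members, beside 25.3%. At 24 °C they did not overlap in 1 member (TRINITY_DN17164_c0_g1_i3), beside 5.86%. Southern libraries at 20 °C and northern libraries at 24 °C overlapped in all 60 members, beside 8.48% of contigs without overlap.

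The contrasts the rule used were also fitted to all contigs that passed a filter on low counts, 31287, with edgeR's quasi-likelihood test and Benjamini-Hochberg adjustment over all of them. All 60 members passed that filter, and calls are at an adjusted p under 0.05. The members were chosen on these contrasts, by a large N and L and a small S, so the counts are given as a description beside the background and nothing is read from them. For temperature in northern larvae 1 member was called, beside 0.559% of contigs, and DESeq2 called 12, beside 2.58%. Without adjustment 44 members had a p under 0.05 by edgeR, beside 13.6% of contigs. The called member was TRINITY_DN121870_c0_g1_i1. Its adjusted p was above 0.05 in 12 alternative fits and under 0.05 in 17. The call was lost on leaving out most of the northern libraries, taken singly, and also with no replicate block or with pools summed.

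For temperature in southern larvae edgeR called 0 members, beside 0.105% of contigs, and DESeq2 called 0, beside 0.182%. None had an unadjusted p under 0.05 by edgeR (0 of 60, beside 7.025%), which the limit on S nearly fixes. For the difference between the northern and southern responses edgeR called 0 members, beside 0.0256%, and DESeq2 called 0, beside 0.0479%. At an unadjusted p under 0.05 there were 21, beside 5.171%. Latitude was tested on counts summed per population, 3 against 3. At 20 °C edgeR called 0 members, beside 0% of contigs, and DESeq2 called 13, beside 2.93%, while 37 had an unadjusted p under 0.05 by edgeR, beside 14.38%. At 24 °C edgeR called 0, beside 0.495%, and DESeq2 called 1, beside 4.63%, while 3 had an unadjusted p under 0.05 by edgeR, beside 14.33%.

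What the southern populations did one by one was not used by the rule, beyond their mean. Southern responses were of mixed sign in 57 of the 60 members (95%), beside 80.31% of the 8404 contigs that passed the conditions on level and S. A response in the direction of N appeared in 42 members in southern population 1 (70%), in 29 in population 2 (48.33%) and in 26 in population 3 (43.33%). Over the 8404 contigs these shares were 54.24%, 54.34% and 57.67%. Responses of 0.3 or more in size appeared in 25 members (41.67%), 21 members (35%) and 33 members (55%), beside 9.63%, 8.08% and 15.7% of the 8404 contigs. The range of responses among the 3 southern populations had a median of 0.73 in the members and 0.27 over those 8404 contigs. In all 277 contigs that met every condition it was 0.45, so it was wider in the 60 taken for the size of N and L.

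The spread between pools moved with this. The mean difference between pools of 1 population and temperature had a median size of 0.53 in the members, 0.34 in all 277 contigs that met the conditions and 0.23 over the 12096 contigs. The part of this spread in the members' N and L was not tested. In northern larvae the range of responses among populations had a median of 1.06, against 0.38 over the 12096 contigs.

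The northern populations shared a sign by the rule but not a size. Among the 18 higher members the median response was 0.66 in northern population 1, 0.91 in population 2 and 0.36 in population 3. Among the 42 lower members it was -0.49, -1.01 and -0.29. Population 2 had the largest median and population 3 the smallest in both directions. In southern larvae the medians for the higher members were 0.31, 0.04 and -0.26, and for the lower members -0.12, 0.04 and 0.09. By the median, southern population 1 thus had the northern direction in both sets, and population 3 the opposite one.

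**Figure D4:**
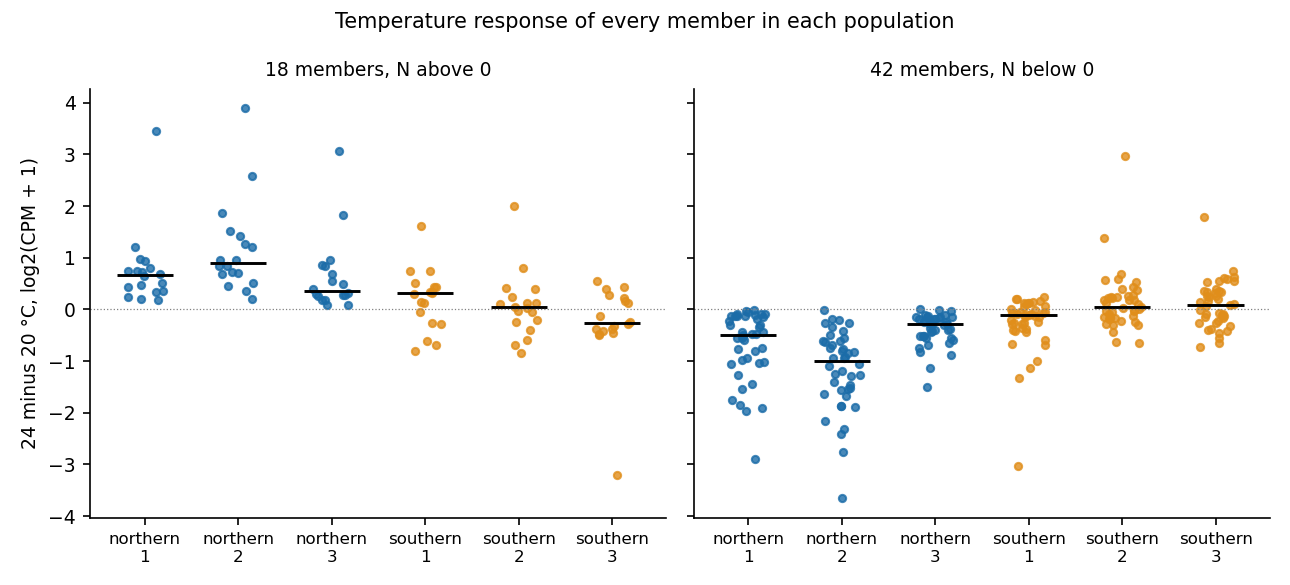
Temperature response (24 minus 20 °C, log2(CPM + 1)) of each of the 18 higher (left) and 42 lower (right) members in the 3 northern (blue) and 3 southern (orange) populations. Points are members, moved sideways at random for visibility, and black bars are medians. Northern responses share a sign because the rule asked for it, and southern responses lie on both sides of 0.

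The difference of responses among the southern populations was tested across all contigs with 12 means, 1 for each population and temperature. EdgeR called 0 of 60 members, beside 0% of contigs, and DESeq2 called 0, beside 0.0416%. There were 3 members (5%) at an unadjusted p under 0.05, beside 4.139% of all contigs, a share near the background. The wider southern range of the members thus passed this test in none of them.

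TRINITY_DN135458_c1_g1_i2 had the smallest p of the members for unequal southern responses. In southern larvae at 20 °C it stood at 9.46 and 15.1 CPM (population 1), 19.5 and 19.1 CPM (population 2), and 9.19 and 9.29 CPM (population 3). At 24 °C the pools held 14.7 and 16.1, 9.00 and 11.6, and 10.96 and 14.8 CPM. Population 2 was lower at 24 °C by -0.85, and the others were higher by 0.33 and 0.43. The unadjusted p was 0.00644 and the adjusted p 1 by edgeR, so the difference did not pass. Northern libraries held 5.72 to 11.3 CPM at 20 °C and 10.3 to 22.0 CPM at 24 °C.

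TRINITY_DN2334_c5_g4_i4 came next. Its southern levels at 20 °C were 126.3 and 100.3 CPM (population 1), 385.4 and 253 CPM (population 2), and 216.1 and 169.2 CPM (population 3). At 24 °C they were 200 and 179, 169.9 and 222.2, and 251 and 182.6 CPM. Population responses were 0.74, -0.68 and 0.16, with an unadjusted p of 0.0335 and an adjusted p of 1 by edgeR. Population 2 was the highest at 20 °C and no longer apart at 24 °C. The other member under 0.05 was TRINITY_DN125810_c1_g1_i8, with responses of -0.36, -0.19 and 0.59 and an unadjusted p of 0.0374.

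Levels were also compared among the populations of a latitude, which the rule did not use directly. Taking the largest N and L favours contigs that vary between pools and populations. The range of levels among southern populations had a median of 0.44 in the members, 0.28 in the 277 contigs and 0.17 over the 12096. Among northern populations it was 0.60, 0.38 and 0.21. In both latitudes the members' shares are thus not like for like with those of all contigs. For levels averaged over both temperatures, edgeR called 0 members among the southern populations, beside 0% of contigs, and DESeq2 called 1, beside 0.511%. Without adjustment, 13 members (21.67%) had a p under 0.05, beside 7.31% of all contigs. The lowest adjusted p, 0.460, was that of TRINITY_DN124042_c0_g1_i2, whose 2 high southern libraries were both pool b of population 3. For this contig DESeq2 gave an adjusted p of 0.00159. The second lowest unadjusted p, 0.0063, belonged to TRINITY_DN68618_c0_g1_i1 (adjusted p 0.506 by edgeR). That contig stood at 11.1 to 22.5 CPM in southern population 1, at 7.88 to 12.7 CPM in population 2 and at 6.13 to 10.9 CPM in population 3.

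Among the northern populations edgeR called 1 member for level, beside 0.706% of contigs, and DESeq2 called 9, beside 2.43%. Without adjustment, 18 members (30%) had a p under 0.05, beside 12.81% of all contigs. The called member, TRINITY_DN2334_c4_g4_i3, is a higher member. It held 120.2 and 152.2 CPM at 20 °C and 239 and 215 CPM at 24 °C in northern population 1. In population 2 it held 118.2 and 123.8 CPM at 20 °C and 114.5 and 240.4 CPM at 24 °C, and in population 3 it held 62 and 61.8 CPM, then 119.6 and 64.7 CPM. Population 3 was the lowest at each temperature apart from pool a at 24 °C.

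The F statistic of that contig was 15.4 and its adjusted p 0.0384 by edgeR. The adjusted p was above 0.05 in 19 of 33 alternatives and reached 0.753 without northern population 3. TRINITY_DN127127_c1_g1_i5 had an adjusted p of 0.0953 by edgeR. It stood at 7.27 to 17.4 CPM in northern population 1, 2.18 to 9.61 CPM in population 2 and 3.32 to 6.42 CPM in population 3. DESeq2 gave it an adjusted p of 0.0113.

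Unequal responses among the northern populations are not independent of the rule, which asked for 1 sign. Here edgeR called 0 members, beside 0% of contigs, with 9 (15%) at an unadjusted p under 0.05, beside 6.805% of all contigs. DESeq2 called 0, beside 0.141%.

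The choice was repeated on pool a alone and the same measures read in pool b, and the reverse, which sets the members' pattern against larvae that had not chosen it. The pools share populations, so differences between populations carry over. On pool a 267 contigs met every condition. In pool b the 60 taken from them had N of the chosen sign in 37 (61.67%, beside 63.38% of all 12107 contigs at that level) and L of the chosen sign in 43 (71.67%, beside 66.84%). Both signs were kept in 32 (53.33%, beside 43.38%). The median N along the chosen direction went from 0.71 to 0.12 and the median L from 0.61 to 0.25, while the median size of S went from 0.07 to 0.28. Every condition was met in pool b, with N of the sign it had in pool a, by 1 of the 60 (1.67%), beside 2.76% of all contigs of that level.

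On pool b 466 contigs met every condition. In pool a the 60 taken kept the sign of N in 45 (75%, beside 63.29%) and of L in 41 (68.33%, beside 67.04%). Both were kept in 33 (55%, beside 43.39%, again not like for like). The median N went from 0.73 to 0.15, the median L from 0.92 to 0.18 and the median size of S from 0.08 to 0.21. Every condition was met in pool a, with N of the sign it had in pool b, by 3 of the 60 (5%), beside 1.504% of all contigs of that level. Of the 60 contigs chosen on pool a, 8 were members, and of those chosen on pool b, 7. Over all contigs of that level the median N along its sign in 1 pool was 0.071 (pool b) and 0.070 (pool a) in the other. For the chosen contigs it was 0.12 and 0.15. The median L over all contigs, taken along the sign of N and not of L, was -0.012 and -0.0059. For the chosen contigs it was 0.25 and 0.18. Only the chosen contigs were required to have L of the sign of N, so these medians of L are not like for like. Signs of N and L taken one by one were thus kept at shares near those of all contigs for N on pool a and for L on pool b.

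**Figure D5:**
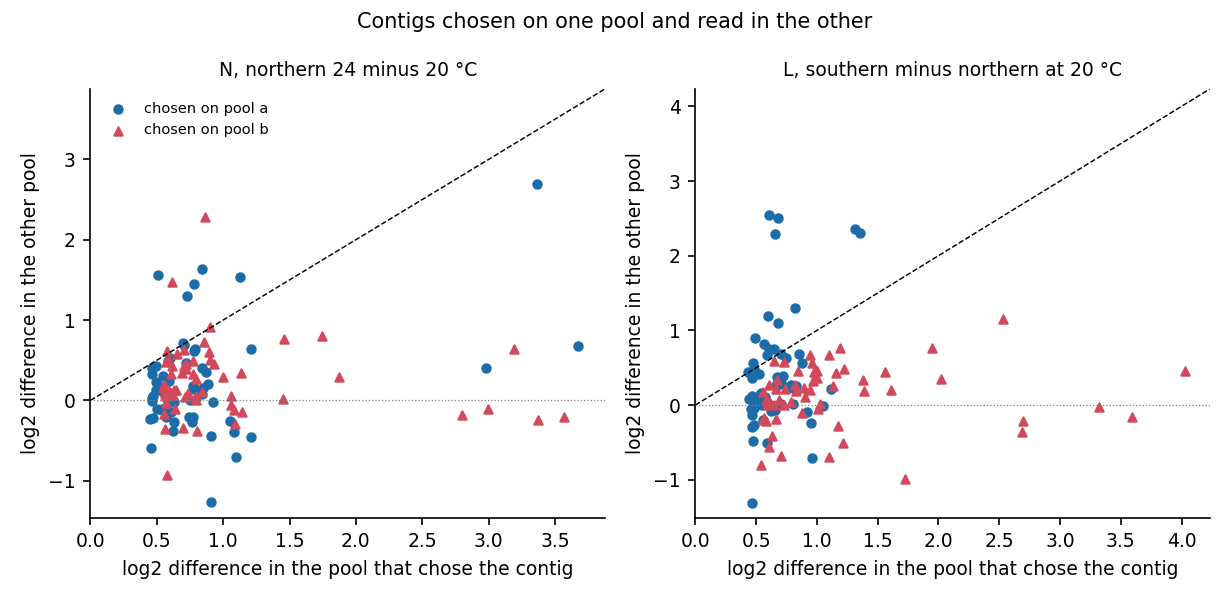
N (left) and L (right) of the 60 contigs chosen on pool a (blue circles) and the 60 chosen on pool b (red triangles), along the chosen direction, in the pool that chose them (horizontal axis) and in the other pool (vertical axis), as differences of log2(CPM + 1). The dashed line marks equal values. Most points lie under it, and the medians in the other pool were 0.12 and 0.15 for N and 0.25 and 0.18 for L.

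The members themselves, chosen on both pools, had N of 1 sign in each pool in 57 and L of 1 sign in 56. All conditions were met by 13 in pool a alone, by 9 in pool b alone and by 2 in each. When single libraries were left out, 4 members met every condition in all 24 cases. These were 1 higher member, TRINITY_DN135458_c1_g1_i2, and 3 lower ones, TRINITY_DN125657_c0_g1_i1 and TRINITY_DN1924_c3_g2_i11 among them. The member that met them least often, TRINITY_DN68415_c46_g1_i2, did so in 12.

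With group means removed, the lower members varied together from library to library. The median correlation between 2 lower members over the 24 libraries was 0.24, and 27.1% of these 861 pairs passed 0.5 in size. Between 2 higher members the median was 0.07, between a higher and a lower member -0.06, and over all pairs of the 12096 contigs 0.0015, with 7.29% past 0.5. The lower members were all chosen for a high mean in the same northern libraries, those at the lower temperature. This favours contigs raised together by a shared library. Pairs of all contigs were under no such choice and had no common direction, so their median and share are not like for like. The part of the choice in the members' correlations was not tested. The points share libraries and depth, and the values are a description.

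Members linked by correlations over 0.7 fell into groups of 23 and 12 lower members and 2 groups of 3 higher members, with 19 in none. The 23 lower members, led in size by TRINITY_DN173075_c13_g4_i1, were highest in pool b of northern population 1 at 20 °C, by a median of 0.74 over the northern 20 °C mean. They stood at 0.24 in pool b of population 2 and from -0.05 to -0.59 in the other northern 20 °C libraries. Northern libraries at 24 °C lay from -0.17 to -0.91, the least low again being pool b of population 1.

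The 12 other lower members, led by TRINITY_DN285672_c1_g1_i1, followed another library pattern. In northern population 1 they did not stand low at 24 °C in pool a (0.35, against 0.28 and 0.08 in its 20 °C pools) and were at -0.10 in pool b. In population 2 they were at -1.23 and -1.62 at 24 °C, after 0.02 and 0.35 at 20 °C. Their northern difference was thus largest in population 2. A group of 3 higher members that holds TRINITY_DN124042_c0_g1_i2 stood at 3.69 in pool a of northern population 2 at 24 °C and at 1.88 in pool b of southern population 3 at 20 °C, against 0.80 or less in the other northern libraries.

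Other contigs of the members' Trinity genes gave 8 that passed the level conditions, of 19 in the table. All 8 had N and L of the member's sign, with medians of 0.47 for N and 0.54 for L along its direction. Over all 3086 ordered pairs of contigs of 1 Trinity gene, 79% shared the sign of N. In 53.89% of the pairs, L of 1 contig had the sign of N of the other. Members had L of the sign of N by the rule and these pairs did not, so the shares for L are not like for like. None of the 8 met every condition. With counts summed over each Trinity gene, 56 of the 60 member genes met every condition, 9 of the 13 with several contigs among them. For the 47 genes with 1 contig the sum is the member itself, and in the 13 others it includes the member.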

How the data were processed

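Raw read counts were deposited by the authors in 1 table (whole numbers, not normalised), for 34095 Trinity contigs in 24 libraries. The submitters' processing notes name Subread 1.5.1, featureCounts, Trimmomatic 0.36 and FastQC 0.11.5. Not given in the sources used here are their roles, the settings of the assembly and the strand setting. No contig identifier matched the RefSeq gene table of the species (0 matches), so contigs carry no names.

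Libraries were grouped by the labels' latitude, population, temperature and pool. Pairing by population comes from the labels. With group means removed, 20 and 24 °C levels of a population correlated at -0.037 (northern population 2) to 0.26 across contigs. Between the 2 pools of a population at a temperature, chi-square over its degrees of freedom was 11.9 to 60.4, so in none of these pairs was 1 library a repeat of the other. Nothing in the labels gives a batch. In the main fits, p-values for differences among populations measure the spread between pools only, and those for latitude the spread between populations. Those for temperature measure both together and count the 2 pools of a population as separate. With pools summed, contigs called for temperature in northern larvae went from 175 of 31287 to 2 of 33699.

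Counts were analysed in R 4.3.3 with edgeR 4.0.16, with TMM scaling of all contigs for the levels. Fits used robust quasi-likelihood F tests on the 31287 contigs left by filterByExpr (minimum count 10, minimum total 15). Temperature was fitted with 1 intercept for each population and 1 temperature effect for each latitude. Population differences were fitted with 12 means and tested on 2 contrasts. DESeq2 1.42.0, other scalings, no filter, group medians and leaving out libraries or populations were alternatives. Each test was tried beforehand on simulated data.

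The members, lists and tests were chosen with earlier results of these data known. Contigs were named by rule: the 2 members of each direction with the largest smaller value of N and L, the 2 with the smallest p for unequal southern responses, and the 2 with the smallest p for level differences in each latitude. Names outside the rule were chosen after their values were seen, as were the comparison of shared with separate libraries, the group medians and the exclusion of 2 libraries together.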

Additional observations from a re-analysis of the deposited data

Results flagged for a closer look

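For the 13 members whose libraries were read one by one (those named by rule, those called, and those without overlap or with every condition met in each pool), and for the summed shares of the higher and the lower members, 60 groups of 6 libraries were examined. In 11 of them 1 library lay apart, its gap to the nearest library exceeding the limit of Dixon's outlier test as a share of the group's range. The limit is passed by about 1 group in 20 when values are normally distributed. Over the 12096 contigs past the level conditions the share was 7.81% (southern, 24 °C) to 10.8% (northern, 24 °C). The 13 members were picked partly by their values, so 11 of 60 is not like for like with either share.

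Pool b of northern population 1 at 20 °C was that library for 4 contigs, all lower members. It held 199.6 CPM of TRINITY_DN173075_c13_g4_i1 (nearest library 35.97), 181.5 CPM of TRINITY_DN121870_c0_g1_i1 (nearest 141.3), 17.98 CPM of TRINITY_DN11834_c0_g1_i1 (nearest 10.71) and 17.44 CPM of TRINITY_DN127127_c1_g1_i5 (nearest 9.61). Each raises the northern 20 °C mean. Pool b of northern population 1 at 24 °C held 154.2 CPM of TRINITY_DN121870_c0_g1_i1 (nearest 85.04). Pool b of northern population 2 at 20 °C held 18.33 CPM of TRINITY_DN68415_c46_g1_i2 (nearest 1.02).

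TRINITY_DN124042_c0_g1_i2 stood apart in 3 libraries, at 33.92 CPM in pool a of northern population 2 at 24 °C, and at 73.33 and 50.31 CPM in pool b of southern population 3 at 20 and 24 °C. Pool a of southern population 1 held 19.67 CPM of TRINITY_DN173075_c13_g4_i1 at 20 °C (nearest 7.378) and 22.52 CPM of TRINITY_DN68618_c0_g1_i1 at 24 °C (nearest 11.14).

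Over all 60 members, 13 had such a library in northern larvae at 20 °C, 13 in northern larvae at 24 °C, while southern larvae had 9 at the lower and 10 at the higher temperature. The shares over the 12096 contigs past the level conditions were 9.09%, 10.8%, 7.91% and 7.81%. The library was most often pool b of northern population 1 at 20 °C, with 12 members, then pool a of southern population 1 at 24 °C, with 8. What these libraries share was not tested.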

How the results depend on the processing

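The members depend on the southern condition most. Leaving out single libraries or populations, 25 (without southern population 3) to 60 of the 60 still met every condition, and 233 to 802 contigs did so in all, the most without northern population 3. With group medians in place of means 28 members met them, S being the condition most often missed (33 within its limit). With a minimum of 10 CPM 177 contigs met them. N kept its sign in all 60 members with each single library or population left out, and in 59 without both pool a of northern population 2 at 24 °C and pool b of northern population 1 at 20 °C. With separate 20 °C libraries, contigs with L against N went from 167 to 274 with N from pool a, and for pool b those with L along N went from 541 to 213 and those against from 110 to 291. Chosen on pool a, 1 to 3 contigs met every condition in the other pool with populations left out, and chosen on pool b, 1 to 4. For temperature in northern larvae, members called were 0 with no replicate block, beside 190 of 31287 contigs, and 0 with pools summed, beside 2 of 33699. DESeq2 called 12, beside 807 of 31287. Leaving out libraries gave 0 to 5, the 5 beside 318 of 31684 contigs. For latitude at 20 °C, 1 was called with 12 independent libraries, beside 77 of 31287 contigs, and 13 with DESeq2, beside 918 of 31287. At 24 °C DESeq2 called 1, beside 1449 of 31287. For levels among southern populations DESeq2 called 1, beside 160 of 31287. Among northern populations 0 were called for level without the filter on low counts, beside 159 of 34095 contigs, and 9 with DESeq2, beside 760 of 31287. Leaving out libraries or populations gave 0 to 6, the 6 beside 552 of 31684 contigs. For unequal responses it gave 0 to 1, the 1 beside 18 of 31684 or 135 of 31921 contigs. N and L of the 2 higher and 2 lower members named for their size kept their signs with other scalings and with each single library left out. Their S was not followed in these alternatives, nor was their L with populations left out. The causes of the changes listed here were not tested. The precision is limited by 6 libraries a group and 3 populations a latitude, and the part of depth in it was not tested.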
